A study of Mus musculus with 48 samples.

Results

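The genes described here are 9 components of the interferon signaling route, namely the receptor chains Ifngr1, Ifngr2, Ifnar1 and Ifnar2, the kinases Jak1 and Jak2, the transcription factors Stat2 and Stat3, and the inhibitor Socs1. They were chosen by name and are 9 of the 55450 genes in the count table. Each was followed across all 16 conditions of the study, in tumors of B16-D5 cells, a subclone of the mouse melanoma line B16.

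RNA was sequenced from 48 individual subcutaneous flank tumors, 3 per condition, grown in C57BL/6J or iNOS KO mice that arrived at 4 weeks of age and were housed for 2 weeks before use. The cells were injected 8 days before treatment began, and treated mice received 250 µg of anti-PD-1, the antibody that blocks the inhibitory T cell receptor PD-1, or of control IgG on days 0 and 3. The time course held 30 tumors in wild-type (WT) hosts, untreated at 0 h and then untreated, IgG-treated or anti-PD-1-treated at 6 h, day 1 and day 3. The titles give the earliest treated tumors as D0, and 6 h and day 7 are the times in the study's text. Tumors taken at 6 h and day 1 thus came before the dose of day 3. Whether those taken at day 3 had received it is not stated. The day 7 experiment held 18 tumors, untreated, IgG-treated or anti-PD-1-treated, in WT hosts and in iNOS KO hosts, which lack the inducible nitric oxide synthase encoded by Nos2. The deletion belonged to the host, and B16-D5 cells were injected in every group. Each RNA sample was a whole tumor, in which cells of the melanoma line were mixed with host cells.

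Interferon γ binds a receptor built from IFNGR1 and IFNGR2, to which JAK1 and JAK2 are attached. The type I interferons bind IFNAR1 and IFNAR2, to which TYK2 and JAK1 are attached. STAT2 joins IRF9 in the complex that binds interferon-stimulated response elements (ISRE), STAT3 is best known as the effector of interleukin 6 and interleukin 10, and SOCS1 is induced by interferon and inhibits the JAK kinases. In melanoma, loss of JAK1, JAK2 or an interferon receptor chain is a known route of escape from PD-1 blockade.

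Ifnar2, Ifnar1, Ifngr2 and Socs1 lay on mouse chromosome 16 (GRCm38). Ifnar2 (chr16:91372783-91405589), Ifnar1 (chr16:91485238-91507441) and Ifngr2 (chr16:91547072-91565623) all lay on the plus strand within 192841 bp, and Socs1 (chr16:10782240-10785536) lay on the minus strand. Ifngr1 (chr10:19591949-19610229) and Stat2 (chr10:128270559-128292849) lay on the plus strand of chromosome 10. Jak1 (chr4:101152367-101265282) and Stat3 (chr11:100885098-100939540) lay on the minus strand, and Jak2 (chr19:29251828-29313080) lay on the plus strand. Ifnar2 overlapped the annotated gene Gm21970 and Jak1 overlapped Gm12785 on the same strand, so the counts of these members may be split with their neighbors. Jak1 also overlapped Raver2 and Stat3 overlapped Stat5a on the opposite strand, and their reads can be told apart only if counting used strand.

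In the time course, described later, Stat2 and Socs1 moved with interferon targets and Ifnar1, a receptor gene, did not. The promoters of Stat2, Socs1 and Ifnar1 are shown as examples. Each runs from 250 bases before to 50 bases after the RefSeq start of the gene (GRCm38.p6), at chr10:128270248-128270547 on the plus strand for Stat2, chr16:10785487-10785786 on the minus strand for Socs1 and chr16:91484965-91485264 on the plus strand for Ifnar1. Capitals mark ISRE-like matches in Stat2 and Socs1 and a GAS-like match (gamma-activated sequence) in Ifnar1.
Stat2: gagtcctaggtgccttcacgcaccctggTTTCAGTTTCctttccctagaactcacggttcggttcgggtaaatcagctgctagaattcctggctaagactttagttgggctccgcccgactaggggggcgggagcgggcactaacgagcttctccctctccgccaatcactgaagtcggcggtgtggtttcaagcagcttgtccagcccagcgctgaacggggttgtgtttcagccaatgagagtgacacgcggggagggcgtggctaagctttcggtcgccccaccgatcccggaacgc
Socs1: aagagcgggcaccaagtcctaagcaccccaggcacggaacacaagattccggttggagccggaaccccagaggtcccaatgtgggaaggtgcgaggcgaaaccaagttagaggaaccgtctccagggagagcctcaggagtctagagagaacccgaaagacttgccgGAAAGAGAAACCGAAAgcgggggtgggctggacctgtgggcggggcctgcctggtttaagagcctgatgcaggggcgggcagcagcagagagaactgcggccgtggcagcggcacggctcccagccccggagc
Ifnar1: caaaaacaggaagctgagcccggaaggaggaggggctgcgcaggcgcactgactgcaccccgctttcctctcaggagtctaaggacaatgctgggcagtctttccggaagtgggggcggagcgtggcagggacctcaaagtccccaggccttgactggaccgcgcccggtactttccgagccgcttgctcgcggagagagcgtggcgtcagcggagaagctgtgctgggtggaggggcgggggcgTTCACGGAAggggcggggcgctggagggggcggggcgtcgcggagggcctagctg
The ISRE-like motif GAAANNGAAA, searched on both strands (TTTCNNTTTC on the other), matched Stat2 at position -222 and in Socs1 at the overlapping positions -83 and -77, counted from the start. It was found in 2 of the 9 member promoters and in 3.44% of 32851 promoters. The GAS-like motif TTCNNNGAA, which reads the same on both strands, was found in Ifnar1 at -5 and in Ifnar2 at -214, again in 2 of 9 members, and in 8.3% of all promoters. These matches describe the letters only. Jak2 and Stat3, which also rose with interferon targets in the time course, had neither motif in their promoters.

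Total counts ranged from 25574203 to 47687872 in the time course and from 11625862 to 40959309 at day 7, where 3 libraries stood apart. The sum over 1504 genes for sensory receptors (olfactory, vomeronasal and taste) was 2832 CPM (counts scaled to library size) in replicate 3 and 1175 CPM in replicate 4 of WT anti-PD-1 and 871 CPM in iNOS KO untreated replicate 1, against at most 307 CPM in any other library. These libraries had 11625862, 18797177 and 23267834 counts. Melanoma genes summed to 9306 to 20436 CPM in the 48 tumors and leukocyte genes to 43.3 to 636 CPM, so the labeled tissue was present in each. Keratinocyte genes varied from 0.0867 to 3340 CPM, skeletal muscle genes from 2.08 to 4953 CPM and fibroblast genes from 268 to 6973 CPM, and their part in the results was not tested. Nos2 measured 1.15 to 5.92 CPM in iNOS KO hosts and 1.40 to 7.28 CPM in WT hosts at day 7, so it did not separate the genotypes, which rest on the labels.

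To determine how abundant the components were, levels were compared per kilobase (kb) of exon in the annotation. In the time course Ifngr2 (19.9 ± 2.92 CPM per kb, SD, n = 30), Stat3 (19.8 ± 5.21) and Jak1 (18.5 ± 3.41) stood highest, and Stat2 (15.6 ± 7.87), Ifnar2 (15.01 ± 2.46) and Ifngr1 (14.5 ± 5.22) followed. Ifnar1 (11.8 ± 1.31) and Jak2 (10.9 ± 2.00) were lower, and Socs1 was far below the rest at 1.93 ± 2.08 CPM per kb. Apart from the step down to Socs1, neighbors in this order differed by less than the larger of their SDs over tumors. At day 7 Ifngr2 (20.6 ± 2.39 CPM per kb, n = 18) was again highest and Socs1 (0.794 ± 0.564) lowest, with Stat3 at 17.7 ± 3.71, Ifnar2 at 15.3 ± 2.62, Jak1 at 14.6 ± 4.25, Ifnar1 at 11.8 ± 1.82, Stat2 at 10.6 ± 2.91, Ifngr1 at 10.4 ± 4.12 and Jak2 at 9.21 ± 1.66. The experiments were normalized separately, so their levels were not compared by a test.

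The members differed in how much they varied from tumor to tumor. Across the time course the highest tumor exceeded the lowest 67.4-fold for Socs1 (0.421 to 28.4 CPM, median 3.94) and 7.13-fold for Stat2 (37.1 to 265 CPM, median 80.7). For the signaling receptor subunits Ifngr2 (59.7 to 106 CPM, median 72.6) and Ifnar1 (52.6 to 85.7 CPM, median 70.1) it did so only 1.77-fold and 1.63-fold. Ifngr1, the ligand-binding chain for interferon γ, lay between them at 3.32-fold (23.3 to 77.3 CPM, median 38.6), as did Stat3 at 2.81-fold (131 to 369 CPM) and Jak2 at 2.33-fold (39.7 to 92.4 CPM). Ifnar2 (36.8 to 71.2 CPM) and Jak1 (97.6 to 187 CPM) spanned 1.93-fold and 1.92-fold. Within conditions, the biological coefficient of variation of Stat2 was 0.380, at the 95.1th percentile of genes of like level, and that of Socs1 was 0.649, at the 91.4th. Ifngr1 (0.299) lay at the 89.9th percentile, whereas Ifngr2 (0.151) and Ifnar1 (0.154) lay at the 17.2th and 19.3th. The chains of 1 receptor, Ifngr1 and Ifngr2, thus stood at different ends of this scale. At day 7 the highest tumor exceeded the lowest 17.03-fold for Socs1, whose coefficient of variation (0.554) lay only at the 63.8th percentile, and 2.90-fold for Stat2 (0.240, 93.3th). Ifngr1 (0.277) lay there at the 92.9th percentile and Ifngr2 (0.160) and Ifnar1 (0.160) at the 17.3th and 18.5th. In whole tumors fewer cells of a type and less RNA per cell cannot be told apart.

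**Figure D1:**
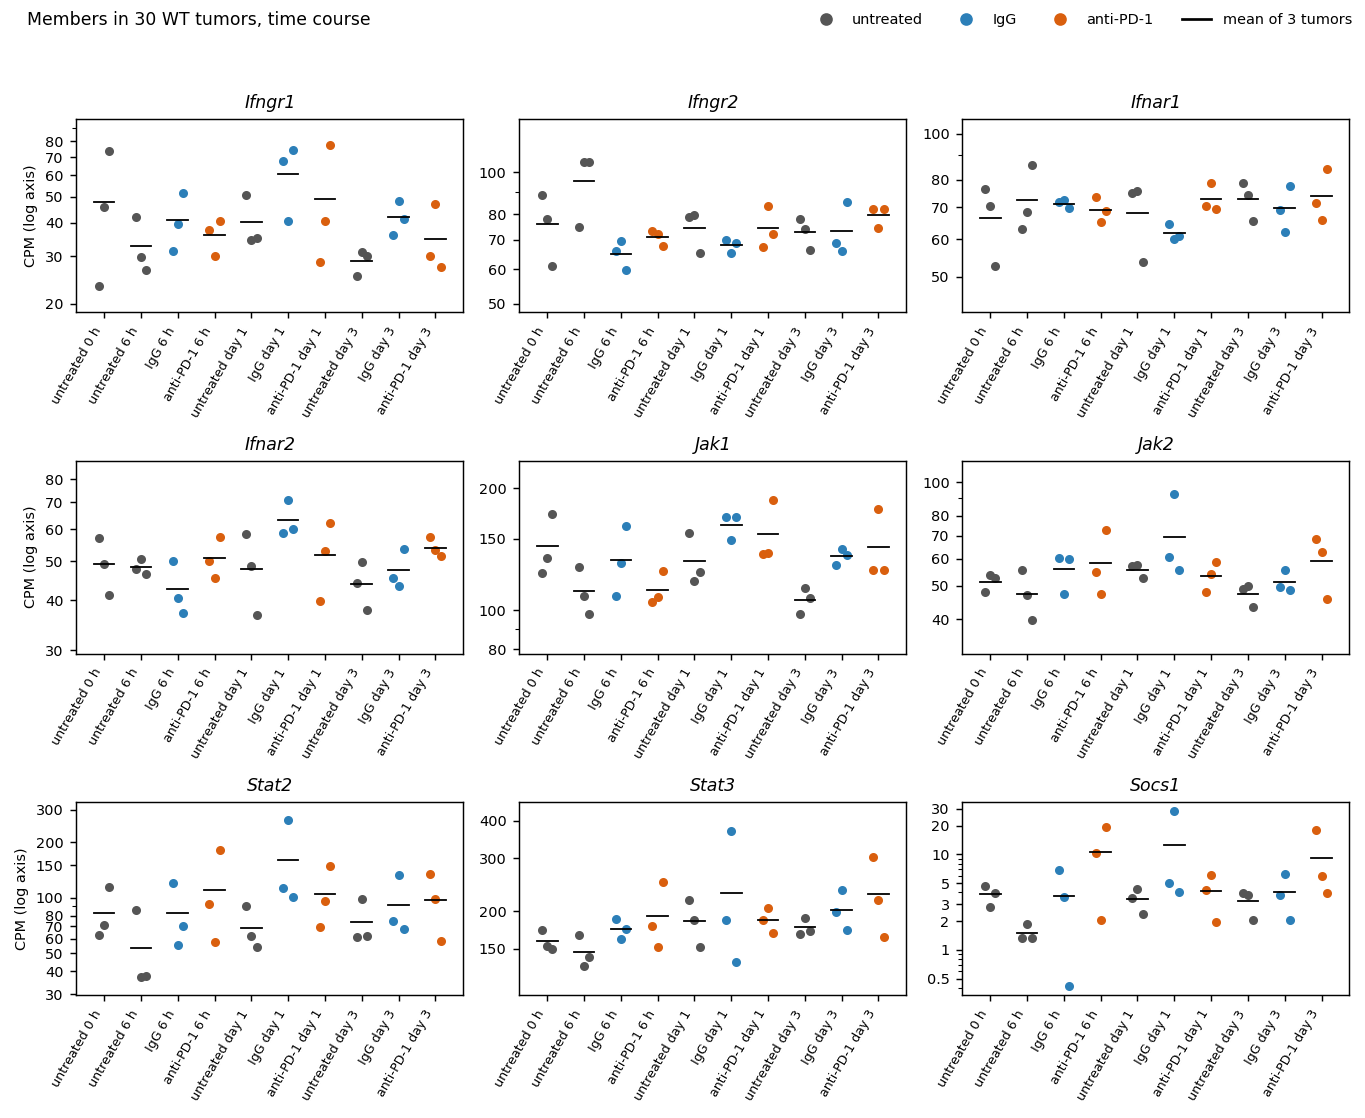
Levels of the 9 genes in the 30 tumors of the time course, in CPM on a log axis, by treatment and time. Points are tumors and lines are means of 3. The Socs1 points run from 0.421 to 28.4 CPM and the Ifnar1 points only from 52.6 to 85.7 CPM.

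To determine whether the components responded to anti-PD-1 early in treatment, the 9 genes were followed at 6 h, day 1 and day 3 against IgG and against untreated tumors. In each of the 14 comparisons of the time course 0 of 9 members passed the test (edgeR quasi-likelihood, adjusted p under 0.05, Benjamini-Hochberg over 26848 genes), and 0% of all genes passed. At an unadjusted p under 0.05 the members gave 13 of 126 results, against 2.14% to 6.92% of all genes by comparison. DESeq2 called 1, Ifngr2 for IgG against untreated at 6 h (-0.53, adjusted p = 0.0158), among 10 genes called there. At 6 h the unadjusted results were 3 of 9 members for anti-PD-1 against untreated (Ifngr2, Stat2 and Socs1, against 3.3% of all genes) and 1 for IgG against untreated (Ifngr2, 5.42%). At day 1 they were 3 for IgG against untreated (Ifnar2, Stat2 and Socs1, 5.43%), and at day 3 Jak1 alone for anti-PD-1 (2.63%) and for IgG (2.64%) against untreated. Anti-PD-1 against IgG gave none at the 3 times.

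Among the receptor chains, Ifngr2 gave the smallest unadjusted p of the time course. This gene, which encodes the signaling chain of the interferon γ receptor, measured 75.0, 106 and 106 CPM in untreated tumors at 6 h, 65.9, 69.4 and 59.7 CPM after IgG and 73.1, 72.0 and 67.7 CPM after anti-PD-1. The untreated tumors lay above both treated groups and overlapped untreated tumors at 0 h (88.6, 78.2 and 61.0 CPM). Ifngr2 was the 1 member not overlapping between IgG and untreated tumors at 6 h, against 8.19% of all genes. The log2 fold change of Ifngr2 was -0.55 ± 0.15 for IgG against untreated (unadjusted p = 0.00103, adjusted p = 0.76) and -0.43 ± 0.15 for anti-PD-1 against untreated (unadjusted p = 0.0083), and both share the same untreated tumors. Ifnar2, the ligand-binding chain for type I interferon, measured 58.9, 71.2 and 60.3 CPM after IgG at day 1 and 58.3, 48.7 and 36.8 CPM in untreated tumors, without overlap (0.40 ± 0.18, unadjusted p = 0.031). Ifnar1 was the most even member, its condition means lying between 61.9 and 73.9 CPM. It was also the 1 member whose anti-PD-1 (70.5, 78.7 and 69.5 CPM) and IgG tumors (64.7, 59.9 and 61.1 CPM) did not overlap at day 1, against 6.49% of all genes, at a log2 fold change of 0.24 (adjusted p = 1). Ifngr1 varied within groups as much as between them, for example 28.5, 40.7 and 77.3 CPM after anti-PD-1 at day 1 and 67.5, 40.7 and 74.2 CPM after IgG.

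Among the kinases, Jak1, which serves both receptors, measured 97.6, 113 and 107 CPM in untreated tumors at day 3, below 126, 177 and 125 CPM after anti-PD-1 and 129, 142 and 136 CPM after IgG. The groups did not overlap, as for 2 of 9 members in each comparison with untreated tumors, against 6.95% of all genes for anti-PD-1 and 11.2% for IgG, and the log2 fold changes of Jak1 were 0.43 ± 0.17 and 0.36 ± 0.17, neither past the threshold (adjusted p = 1), the first being 0.27 without anti-PD-1 day 3 replicate 4. Both comparisons share the untreated tumors, in which Jak1 gave -0.44 ± 0.17 against untreated tumors at 0 h (adjusted p = 0.67). Against 0 h, 2 members had an unadjusted p under 0.05 in untreated tumors at 6 h (Ifngr2 and Jak1, 6.92% of all genes) and 2 at day 3 (Ifngr1 and Jak1, 6.89%), and 1 did not overlap at each time (Socs1, 5.45%, and Jak1, 7.72%). From 6 h to day 3 of anti-PD-1, Ifngr2 (0.17 ± 0.15) and Jak1 (0.35 ± 0.17) did not overlap, against 9.19% of all genes. Jak2 was 60.5, 92.4 and 55.7 CPM after IgG at day 1, its highest condition. IgG at day 1 was the condition with the highest mean for 7 of the 9 members, Ifngr2 and Ifnar1 being the exceptions.

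Of the transcription factors, Stat2 gave the larger differences. Its condition means spanned 2.97-fold, against 1.58-fold for Stat3 and 2.11-fold for Ifngr1. At 6 h Stat2 measured 92.1, 57.7 and 181 CPM after anti-PD-1, 121, 55.7 and 70.6 CPM after IgG and 86.2, 37.1 and 37.7 CPM in untreated tumors. The 3 groups overlapped, and the log2 fold change of Stat2 against IgG was 0.42 ± 0.44 (adjusted p = 1), which turned to -0.09 without anti-PD-1 replicate 5. At day 1 Stat2 measured 113, 265 and 101 CPM after IgG and 90.5, 61.9 and 54.2 CPM in untreated tumors. These groups did not overlap, as for 2 of 9 members and 12.6% of all genes in that comparison, and the log2 fold change was 1.21 ± 0.45 (unadjusted p = 0.0124, adjusted p = 0.859). Stat3 was 178, 151 and 250 CPM after anti-PD-1 at 6 h, 186, 369 and 135 CPM after IgG at day 1 and 303, 218 and 163 CPM after anti-PD-1 at day 3. A single IgG tumor at day 1, replicate 4, held the highest level of Stat2, Stat3, Socs1, Jak2 and Ifnar2 in the time course. Without it the log2 fold change of Stat2 for IgG against untreated at day 1 was 0.68.

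The inhibitor Socs1 gave the widest differences. At 6 h it measured 10.2, 2.04 and 19.6 CPM after anti-PD-1, 6.94, 3.55 and 0.421 CPM after IgG and 1.32, 1.87 and 1.32 CPM in untreated tumors. All 3 anti-PD-1 tumors were above the untreated ones, and the IgG tumors spanned both. In that comparison 2 of 9 members (Socs1 and Ifngr2) and 5.61% of all genes did not overlap. The log2 fold change of Socs1 at 6 h was 2.82 ± 0.84 (SE) for anti-PD-1 against untreated (unadjusted p = 0.00245, adjusted p = 1) and 1.54 ± 0.80 for anti-PD-1 against IgG (adjusted p = 0.97). At day 1 Socs1 measured 5.04, 28.4 and 4.09 CPM after IgG, 4.22, 6.12 and 1.95 CPM after anti-PD-1 and 3.53, 4.38 and 2.39 CPM in untreated tumors, so that 1 IgG tumor carried the highest level of the time course and the other two overlapped the anti-PD-1 group. At day 3 it measured 17.8, 5.92 and 3.93 CPM after anti-PD-1, 3.79, 6.24 and 2.04 CPM after IgG and 3.96, 3.74 and 2.07 CPM in untreated tumors, and at 0 h 4.61, 2.83 and 3.98 CPM. A single anti-PD-1 tumor stood above the rest at day 3. The anti-PD-1 effect on Socs1 against IgG thus had opposite signs at 6 h and at day 1 (-1.61 ± 0.80), a difference of 3.15 ± 1.13 on the log2 scale that did not pass the test (unadjusted p = 0.0096, adjusted p = 1). In this contrast, added after the values were seen, 2 members (Socs1 and Ifnar2) had an unadjusted p under 0.05, against 4.31% of all genes. The size of each of these values rested on single tumors. Without IgG day 1 replicate 4 the day 1 value was -0.20 and the difference 1.76, and without anti-PD-1 6 h replicate 5 the 6 h value against IgG was 0.78.

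**Figure D2:**
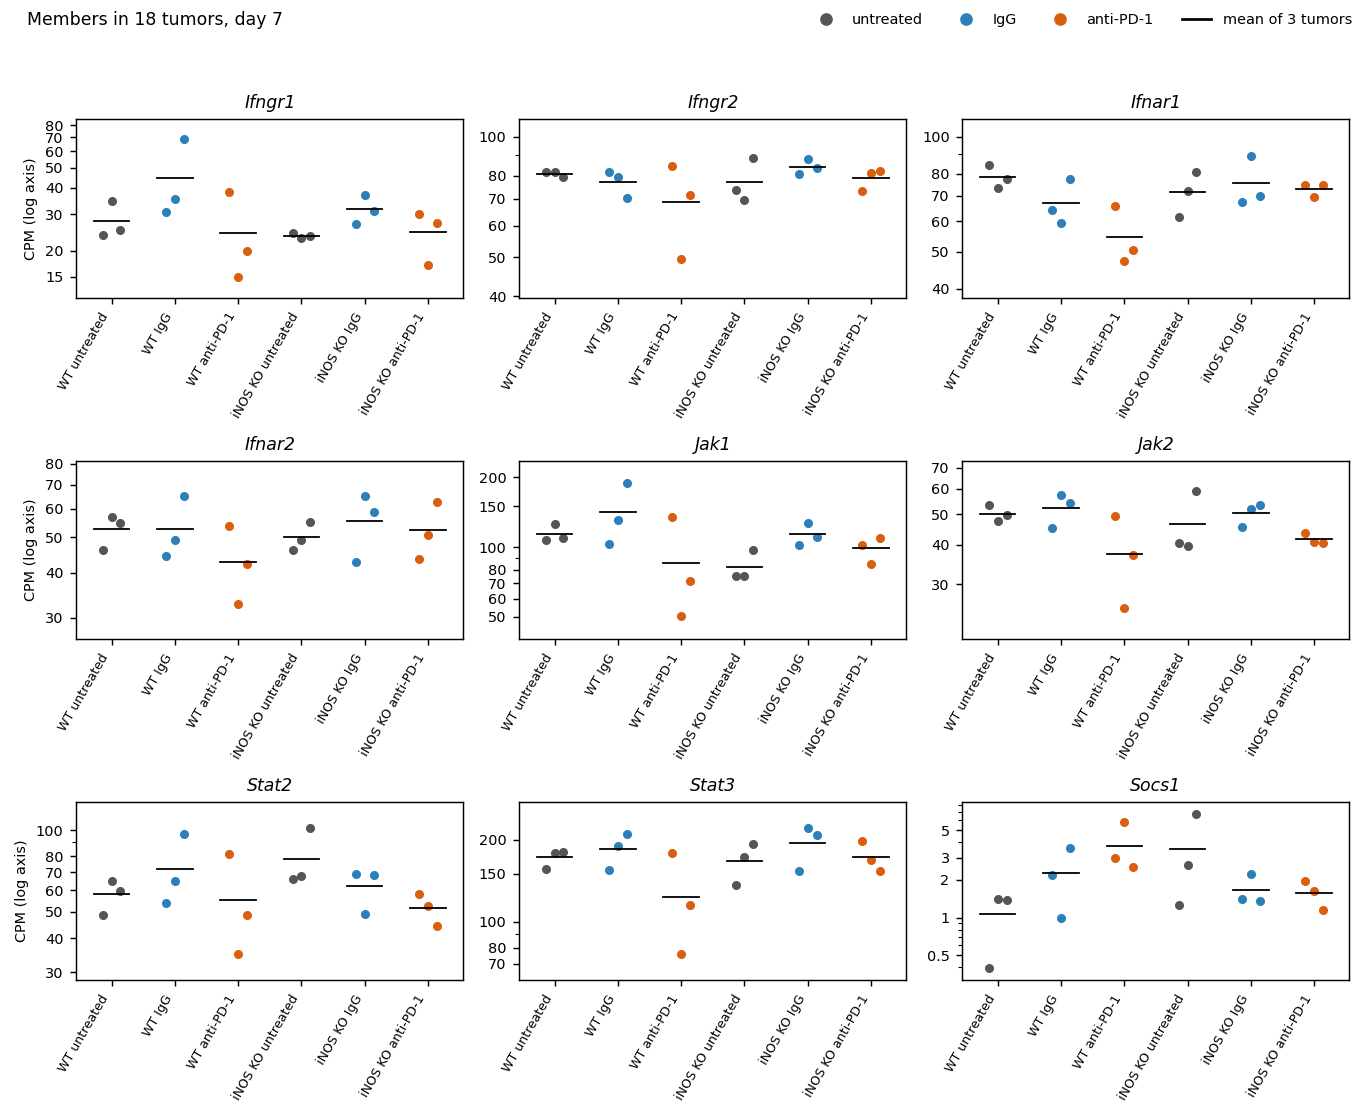
Levels of the 9 genes in the 18 tumors of day 7, in CPM on a log axis, by host genotype and treatment. Points are tumors and lines are means of 3. The WT anti-PD-1 group spans 14.9 to 38.3 CPM for Ifngr1 and 50.2 to 134 CPM for Jak1.

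To determine whether host iNOS changed the components, iNOS KO and WT hosts were compared within each treatment at day 7. Of the 9 members 0 passed the edgeR test in untreated, IgG or anti-PD-1 tumors, while 0.587%, 0% and 0% of 30837 genes did. The median log2 fold change of all genes in these 3 comparisons was 0.49, -0.14 and -0.91, so the members are read against that shift. Socs1 in untreated tumors measured 1.27, 2.64 and 6.72 CPM in iNOS KO hosts and 0.395, 1.40 and 1.39 CPM in WT hosts, overlapping in 1 tumor, with a log2 fold change of 1.74 ± 0.64 (unadjusted p = 0.0136, adjusted p = 0.29), and 0.88 without iNOS KO untreated replicate 4. After anti-PD-1 the order was the other way, at 1.96, 1.62 and 1.14 CPM in iNOS KO hosts and 2.98, 5.77 and 2.53 CPM in WT hosts, without overlap (-1.25 ± 0.64, adjusted p = 0.167, and -0.82 without WT anti-PD-1 replicate 3). Not overlapping between genotypes were 2 of 9 members in untreated tumors (Jak1 and Stat2), against 17.7% of all genes, and 2 of 9 after anti-PD-1 (Ifnar1 and Socs1), against 22.3%. An unadjusted p under 0.05 was reached by 1 member in untreated tumors (Socs1, 16.5% of all genes) and by 1 after anti-PD-1 (Ifnar1, 32.3%).

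This reversal of Socs1 passed the edgeR test with all 18 libraries in the fit, alone among the members' day 7 differences. A larger share of all genes passed in the same contrast. The iNOS KO effect after anti-PD-1 minus that in untreated tumors, a contrast added after the values were seen, was -3.00 ± 0.90 on the log2 scale (edgeR adjusted p = 0.0399), called for 1 of 9 members and for 22.4% of all genes (2 of 9 and 46.6% at an unadjusted p under 0.05). The median log2 fold change of all genes in this contrast was -1.36, and 6039 of the 6919 genes called were lower, as Socs1 was. The contrast uses 12 libraries, and leaving out any of 9 of them ended the call (-2.08 to -3.20, adjusted p = 0.0554 to 0.0991). Without the 3 libraries of high sensory receptor counts the value was about the same, -3.03, with an adjusted p of 0.91 in a fit that held 1 WT anti-PD-1 and 2 iNOS KO untreated tumors. The other contrast of this kind, the anti-PD-1 effect against IgG in iNOS KO minus WT hosts, gave -0.81 ± 0.89 for Socs1 (adjusted p = 0.87).

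Ifnar1 had a difference of the opposite sign. After anti-PD-1 it measured 75.0, 69.7 and 74.8 CPM in iNOS KO hosts and 65.8, 47.3 and 50.4 CPM in WT hosts, without overlap, at a log2 fold change of 0.42 ± 0.17 (unadjusted p = 0.0186, adjusted p = 0.136). The lower 2 WT values were those of replicates 3 and 4, the libraries of high sensory receptor counts, and without the 3 such libraries the value was 0.19, from 1 remaining WT anti-PD-1 tumor. Without WT anti-PD-1 replicate 2 instead, with replicates 3 and 4 alone in that group, it was 0.63 and passed (adjusted p = 0.0341). Stat3 after anti-PD-1 was 198, 168 and 153 CPM in iNOS KO hosts and 178, 76.1 and 115 CPM in WT hosts (0.49, adjusted p = 0.158), and its log2 fold change also turned on single WT tumors. It was 0.90 without WT anti-PD-1 replicate 2 (adjusted p = 0.0261), 0.23 without replicate 3, and -0.00278 without the 3 libraries, again from 1 tumor in that group.

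To determine the effect of treatment within each genotype, anti-PD-1 and IgG were compared with each other and with untreated tumors. In WT hosts 0 of 9 members and 0% of all genes passed the edgeR test in each of the 3 comparisons. For anti-PD-1 against IgG, 4 members had an unadjusted p under 0.05, against 16.3% of all genes, namely Ifngr1 (-0.87 ± 0.31), Jak1 (-0.72 ± 0.27), Jak2 (-0.49 ± 0.20) and Stat3 (-0.58 ± 0.24), each with an adjusted p of 0.305. Ifngr1 was 38.3, 14.9 and 19.9 CPM after anti-PD-1 and 30.8, 35.5 and 68.4 CPM after IgG, and Jak1 was 134, 50.2 and 71.1 CPM and 103, 131 and 189 CPM. In both genes the lower 2 anti-PD-1 values came from replicates 3 and 4, and replicate 2 lay within the IgG range. Without the 3 libraries the 4 log2 fold changes were -0.22, -0.07, -0.09 and -0.05, from a single remaining anti-PD-1 library. Without replicate 2 in place of those, only replicates 3 and 4 remained in that group and all 4 genes were called. The share of all genes called in that fit is not given here.

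Against untreated WT tumors, the log2 fold change of Ifnar1 after anti-PD-1 was -0.52 ± 0.17 (unadjusted p = 0.0049, adjusted p = 0.142), the untreated tumors measuring 84.5, 73.5 and 77.3 CPM. That of Socs1 was 1.82 ± 0.65 (unadjusted p = 0.0108, adjusted p = 0.142). Anti-PD-1 and untreated tumors did not overlap for these 2 members, nor for 24% of all genes, and 3 members had an unadjusted p under 0.05, against 31.9%. Without the 3 libraries the values were -0.29 and 1.46, from 1 WT anti-PD-1 tumor. Without WT anti-PD-1 replicate 2 instead, that group held only replicates 3 and 4, the libraries of high sensory receptor counts. In that fit 4 members were called (Ifnar1, Jak1, Jak2 and Stat3), and its share of all genes called is not given here. Ifnar1 was then at -0.73 (adjusted p = 0.021) and Socs1 at 1.91 (adjusted p = 0.0646). With all libraries, DESeq2 called these 2 members, among 2926 genes in this comparison. It called no member in the other day 7 comparisons apart from the added contrast. The median log2 fold change of all genes was 0.96 in this comparison, whereas 8 of 9 members had negative values and Socs1 alone a positive one. For IgG against untreated in WT hosts, the smallest adjusted p among the members was that of Ifngr1, 0.565, at a log2 fold change of 0.69 ± 0.31 (1 member with an unadjusted p under 0.05, 7.83% of all genes). That value was 0.25 without WT IgG replicate 3.

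In iNOS KO hosts 0 of 9 members passed for anti-PD-1 against IgG, anti-PD-1 against untreated or IgG against untreated, where 0%, 0.0422% and 0.188% of all genes did. Stat2 was 58.4, 52.5 and 44.3 CPM after anti-PD-1 and 66.2, 67.5 and 102 CPM in untreated tumors, without overlap, at -0.60 ± 0.27 (unadjusted p = 0.036, adjusted p = 0.286), and at -0.35 without iNOS KO untreated replicate 4. It was the 1 member with no overlap there, against 14% of all genes, and the 1 with an unadjusted p under 0.05, against 17.3%. The median log2 fold change was 0.03 over the members and -0.44 over all genes. For anti-PD-1 against IgG all 9 log2 fold changes were negative, from -0.36 for Ifngr1 to -0.04 for Ifnar1, and the adjusted p was 1 for each. Jak2 was the 1 member without overlap in that comparison (7.09% of all genes), and Ifngr1 and Jak1 were those for IgG against untreated (17.6%). Across the 10 day 7 comparisons apart from the added contrast the members gave 11 of 90 results at an unadjusted p under 0.05. The share of all genes at that limit ran from 1.94% to 32.3% by comparison. In the comparisons of 2 groups, 10 results of members did not overlap, against 7.09% to 24% of all genes by comparison. A test of any difference among the 6 conditions called 0 of 9 members by edgeR (1.66% of all genes), of which 1 had an unadjusted p under 0.05 (Ifngr1, 28.2%). That over the 10 conditions of the time course also called 0 (0% of all genes), of which 2 had an unadjusted p under 0.05 (Jak1 and Socs1, 5.7%).

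**Figure D3:**
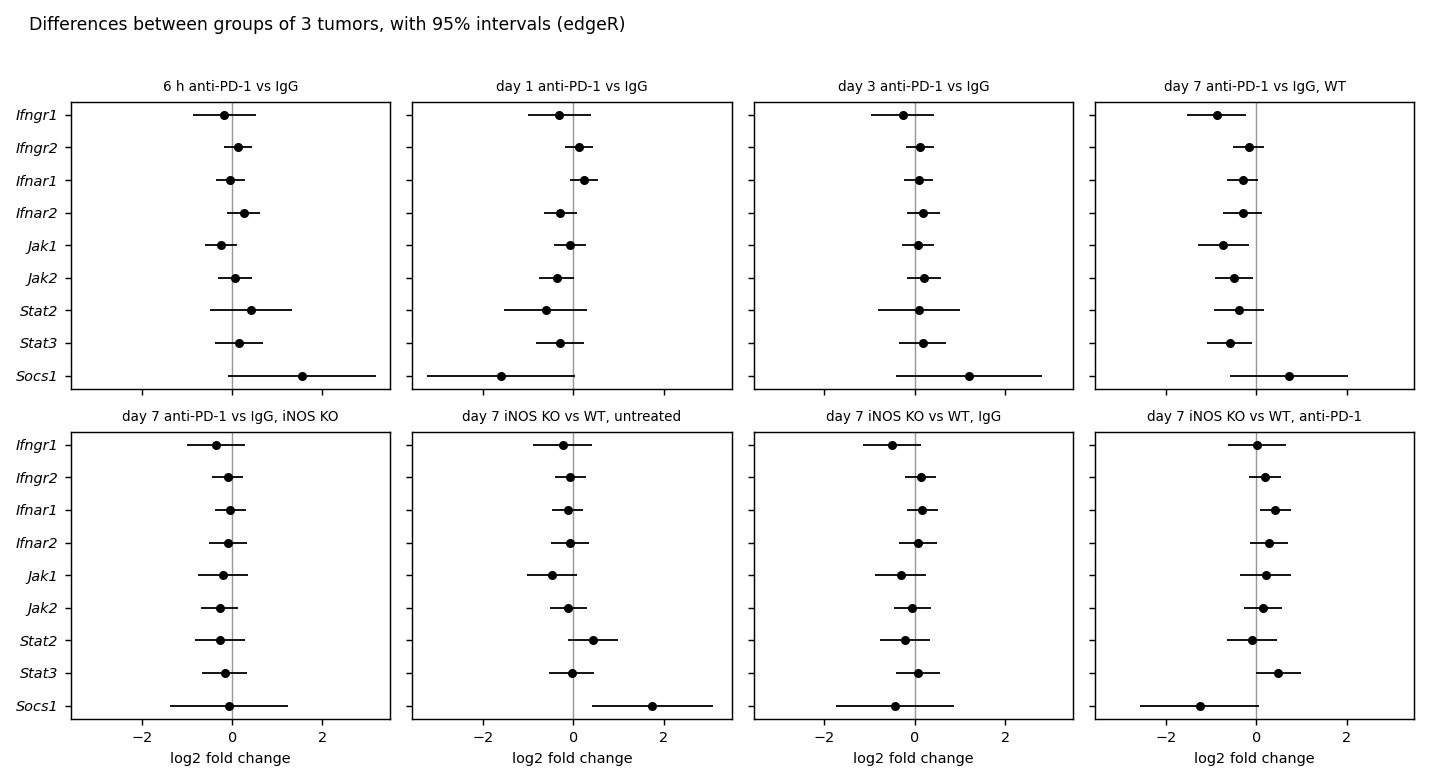
Log2 fold changes of the 9 genes with 95% intervals in 8 comparisons, anti-PD-1 against IgG at 6 h, day 1, day 3 and day 7 in WT and iNOS KO hosts, and iNOS KO against WT hosts by treatment. The intervals of Socs1 are the widest and those of Ifngr2 and Ifnar1 the narrowest, and no value passed the adjusted threshold.

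Because 0 members passed in the comparisons between conditions other than the added contrast, the members were next compared with the levels of 3 gene lists in the same tumors, within conditions. The lists were 18 interferon target genes, leukocyte genes and melanoma genes, none of which held a member. The slope is the change in a gene's log2 level for each unit of the list's mean log2 level, with a separate coefficient for each condition. These fits were added after the values were seen, and list and member come from the same libraries.

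Along the interferon target list, 4 members rose in the time course, against 0.968% of all genes. Stat2 had a slope of 0.69 ± 0.08 (SE, edgeR adjusted p = 9.4e-07), Socs1 of 1.001 ± 0.19 (adjusted p = 0.0025), Stat3 of 0.35 ± 0.06 (adjusted p = 0.00025) and Jak2 of 0.25 ± 0.04 (adjusted p = 0.00052). The other 5 did not pass, at 0.15 for Ifnar2 (adjusted p = 0.386), 0.03 for Ifngr1, -0.02 for Ifngr2, -0.01 for Ifnar1 and 0.00 for Jak1. The members called in the time course were thus the STATs, the inhibitor and 1 kinase, and none was a receptor chain. At day 7 Stat2 passed (0.85, adjusted p = 0.0082), as did 0.691% of all genes, but not without WT anti-PD-1 replicate 2 (0.75, adjusted p = 0.326) or without the 3 libraries (0.73, adjusted p = 0.144). The other day 7 slopes did not separate the members in this way. They were 0.75 for Ifngr1 and 0.72 for Jak1 (edgeR adjusted p = 0.175 and 0.0772), against 0.71 for Socs1, 0.47 for Stat3 and 0.44 for Jak2. Ifnar2 (0.37), Ifngr2 (0.22) and Ifnar1 (0.20) were lower, and none of these passed. The call of Socs1 in the time course was lost without IgG day 1 replicate 4 (0.93, adjusted p = 0.0567).

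Along the leukocyte list the members called were others, apart from Stat2 in the time course. In the time course Ifngr1 (0.56, adjusted p = 0.0028), Jak1 (0.26, adjusted p = 0.0077) and Stat2 (0.69, adjusted p = 0.0065) rose, 3 of 9 against 6.89% of all genes. At day 7 Ifngr1 (0.64, adjusted p = 7.9e-05) and Jak1 (0.48, adjusted p = 0.0053) rose again, 2 of 9 against 3.01% of all genes, and without the 3 libraries their slopes were 0.57 (adjusted p = 0.0011) and 0.34 (adjusted p = 0.0189). The Jak1 call was lost without WT anti-PD-1 replicate 2 (0.33, adjusted p = 0.223). With the 3 list levels in one fit, 0 members were called along the leukocyte list in the time course, where the slopes were 0.43 for Ifngr1 (adjusted p = 0.143), 0.24 for Jak1 (adjusted p = 0.121) and 0.20 for Stat2 (adjusted p = 0.334). At day 7 that fit called Ifngr1 (0.71, adjusted p = 0.0165) but not Jak1 (0.40, adjusted p = 0.404).

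Along the melanoma list the members split by sign in the time course. Ifngr1 (-1.07, adjusted p = 0.00062) and Jak1 (-0.48, adjusted p = 0.0026) fell as the melanoma genes rose, whereas Ifngr2 (0.45, adjusted p = 0.00054) and Ifnar1 (0.46, adjusted p = 0.00076) rose with them. With the 3 list levels in one fit Ifngr2 (0.49) and Ifnar1 (0.48) were still called, whereas Ifngr1 (-0.59, adjusted p = 0.102) and Jak1 (-0.21, adjusted p = 0.288) were not, and Ifnar2 and Stat2 were called in their place. This list moved with 25.5% of all genes, so 4 of 9 members is to be read against a large share. At day 7 0 members and 0% of all genes passed by edgeR along this list, at an unadjusted share of 13.9% over all genes.

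**Figure D4:**
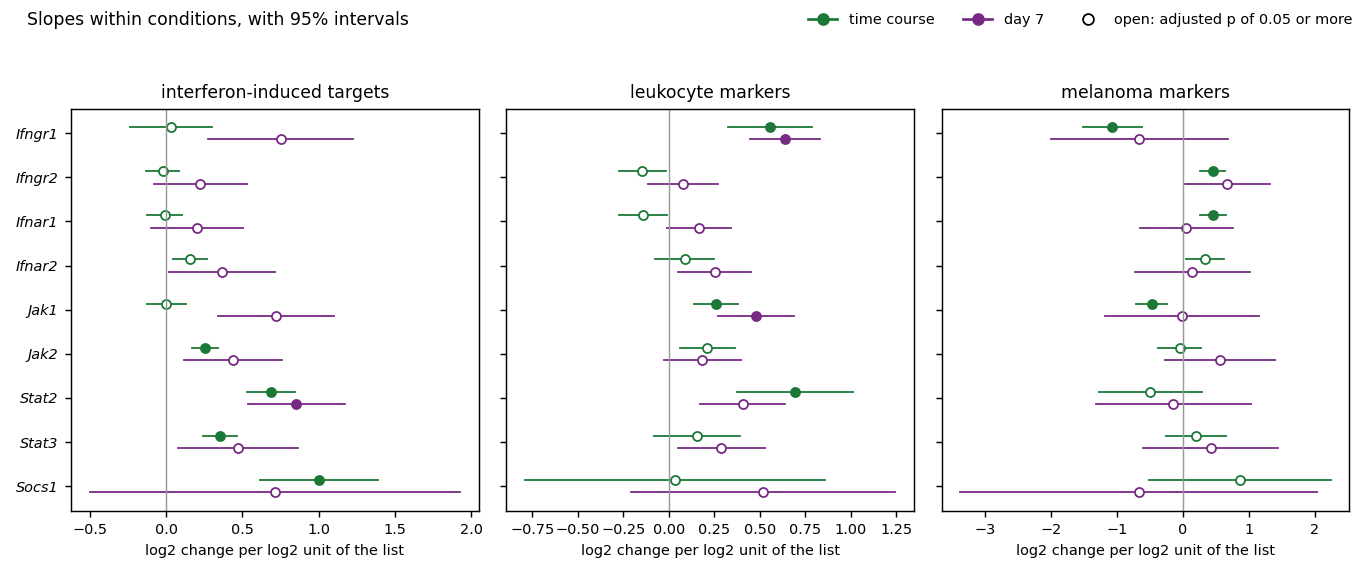
Slopes of the 9 genes on the levels of interferon target, leukocyte and melanoma genes within conditions, with 95% intervals, in log2 per log2 unit. Filled points passed the adjusted threshold of 0.05. Stat2, Socs1, Stat3 and Jak2 are filled for interferon targets in the time course, and Ifngr1 and Jak1 for leukocytes in both experiments.

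**Figure D5:**
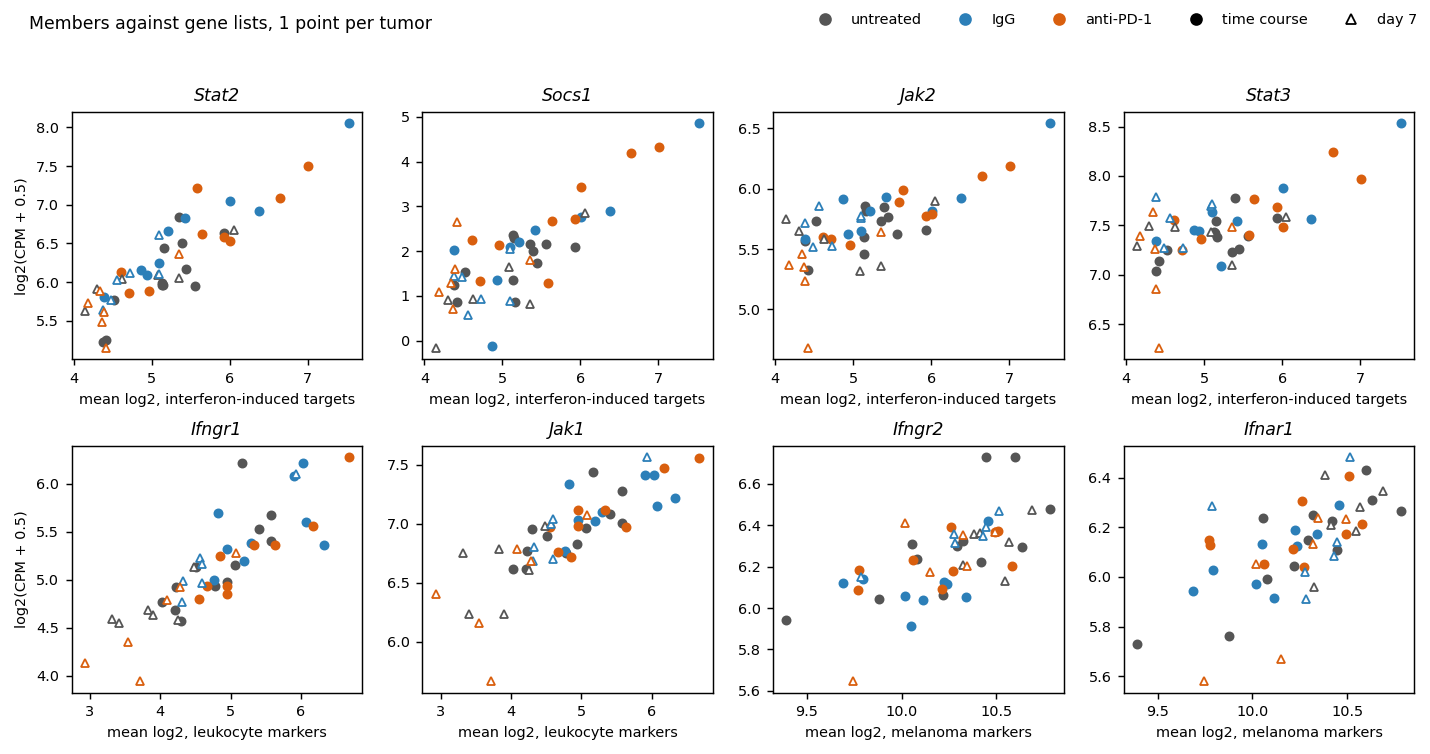
Log2 levels of 8 of the genes against the mean log2 level of a gene list in each tumor, circles for the time course and triangles for day 7, each experiment normalized on its own. Stat2, Socs1, Jak2 and Stat3 are set against interferon targets, Ifngr1 and Jak1 against leukocyte genes, and Ifngr2 and Ifnar1 against melanoma genes, and over the time course the interferon target level runs from 4.38 to 7.53.

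Ifng, which encodes the ligand of IFNGR1 and IFNGR2, was compared with the members because it was detectable, unlike most of the type I interferon genes. It measured 0 to 6.95 CPM in the time course, with 10 of 30 tumors at 0, which allows up to 0.0688 to 0.105 CPM depending on the library. The 4 tumors with the most Ifng were IgG day 1 replicate 4 (6.95 CPM), anti-PD-1 6 h replicate 5 (3.72 CPM), anti-PD-1 day 3 replicate 3 (2.62 CPM) and anti-PD-1 6 h replicate 1 (1.58 CPM). The same tumors held the 4 highest Socs1 levels in the same order, at 28.4, 19.6, 17.8 and 10.2 CPM.

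Over the 30 tumors Socs1 correlated with Ifng at Pearson's r = 0.858 and Spearman's rho = 0.694 (two-sided permutation tests, adjusted p = 3e-05 and 0.00027 over 9 relations), and at r = 0.753 without the 2 tumors farthest from the median of Ifng. Stat2 gave r = 0.76 and rho = 0.691 (permutation adjusted p = 3e-05 and 0.00027), and r = 0.583 without those 2. Stat3 gave 0.787 and 0.571 (permutation adjusted p = 4.5e-05 and 0.00363), and r = 0.62 without the 2, and Jak2 0.732 and 0.477 (permutation adjusted p = 3e-05 and 0.0199), and 0.457 without them. Ifnar2 gave 0.424 and 0.242 (permutation adjusted p = 0.0361 and 0.297) and r = 0.155 without the 2, so its relation rested on the 2 tumors, and the other 4 members gave no adjusted p under 0.05. Of the type I genes, Ifnb1 was at 0 in 29 of 30 tumors of the time course and 15 of 18 at day 7. Ifng at day 7 was at 0 in 8 of 18 tumors and reached 14 counts at most, so these relations were not computed there.

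The members were then compared with each other, over 72 pairs, 36 in each experiment. Ifngr1 and Jak1, a receptor chain and the kinase attached to it, gave the closest pair at day 7, with r = 0.912 and rho = 0.913 (0.832 without the 2 farthest tumors), and r = 0.846 and rho = 0.808 in the time course (permutation adjusted p = 0.000144 and 0.00024, r = 0.801 without the 2). Jak2 and Stat2 gave 0.854 and 0.794 in the time course (0.764 without the 2) and 0.672 and 0.544 at day 7 (permutation adjusted p = 0.00795 and 0.0532, r = 0.373 without the 2). Ifngr2 and Ifnar1, neighbors on chromosome 16, gave 0.634 and 0.675 in the time course (permutation adjusted p = 0.0013 and 0.0009, r = 0.70 without the 2). With DESeq2 size factors in place of the main scaling r was 0.416. At day 7 they gave 0.658 and 0.432 (permutation adjusted p = 0.0115 and 0.134, r = 0.461 without the 2). Ifnar2, in the same stretch of chromosome 16, gave r = 0.155 with Ifnar1 and 0.28 with Ifngr2 in the time course. Stat3 and Socs1 gave 0.764 and 0.657 in the time course (permutation adjusted p = 0.000144 and 0.00187, r = 0.588 without the 2), but -0.218 and 0.1 at day 7 (permutation adjusted p = 0.427 and 0.743). The 2 chains of the interferon γ receptor, Ifngr1 and Ifngr2, gave -0.446 and -0.384 in the time course (permutation adjusted p = 0.0247 and 0.0806, r = -0.471 without the 2), and 0.363 and 0.356 at day 7 (permutation adjusted p = 0.18 and 0.224, r = 0.393 without the 2). All these correlations pool the conditions and share the scaling of each library.

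Genes most like each member were ranked by Pearson's r of log2 levels over the 30 tumors, among 14793 genes expressed in both experiments, as a description, and each pair of values gives r in the time course and at day 7. For Stat2 they were Trafd1 (0.968, and 0.754 over the 18 tumors of day 7) and Oasl2 (0.960, 0.816), both interferon-induced genes, and for Socs1 Irf1 (0.906, 0.602) and Tmem140 (0.893, 0.545). Jak2 was closest to Fgl2 (0.879, 0.554) and Parp14 (0.878, 0.720), and Stat3 to Cd274 (0.856, 0.279), which encodes the PD-1 ligand PD-L1, and Dtx3l (0.843, 0.722).

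The partners of the receptor chains and of Jak1 were as follows. Ifngr1 was closest to Lifr (0.932, 0.946), the receptor for leukemia inhibitory factor, and Myh10 (0.931, 0.530), and Jak1 to St3gal1 (0.907, 0.918) and Stambpl1 (0.906, 0.389). Ifnar2 was closest to Ifi30 (0.822, 0.752) and Grn (0.821, 0.736), and its r with the interferon target list was 0.577 in the time course and 0.234 at day 7. Ifngr2 was closest to Nelfa (0.835, 0.814) and Smo (0.833, 0.431), and Ifnar1 to Rragc (0.837, 0.750) and Tmem126a (0.836, -0.22).

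The wider pathway was described by 53 genes of interferon and cytokine signaling and their targets, of which 46 were tested in the time course and 47 at day 7. In the time course 0 passed in any comparison. At day 7, in untreated tumors, 7 were higher in iNOS KO than in WT hosts and 0 lower, against 0.587% of all genes in either direction. They were Cxcl9, a T cell attractant (3.84 ± 0.64, adjusted p = 0.0097), Gbp2 (3.27 ± 0.61, adjusted p = 0.0172), the immunoproteasome subunits Psmb9 (2.11 ± 0.33, adjusted p = 0.0072) and Psmb8 (1.26), Irf1 (1.48), Ifit3 (1.26) and Cd274 (1.21). T and NK cell genes in these tumors summed to 15.8, 6.61 and 12.8 CPM in iNOS KO and 2.71, 5.58 and 3.64 CPM in WT hosts, without overlap, and their part in the result was not tested. With sensory receptor counts as a covariate 24 genes of all were called here in place of 181, and 150 without the 3 libraries. The 7 genes were interferon targets, and 0 of the 9 members passed in the same comparison. Psmb9 fell in iNOS KO hosts after anti-PD-1 (-1.86, adjusted p = 0.034) and after IgG (-1.60, adjusted p = 0.0439) against untreated. In the contrast added after the values were seen, 3 of the list were called higher and 13 lower, among 22.4% of all genes. Cxcl9 was at -5.60 and Gbp2 at -4.76, where the median log2 fold change of all genes was -1.36.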

How the data were processed

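Whole-number counts per gene, deposited by the authors in 1 table of all libraries, were used as given. The authors had trimmed reads with cutadapt 1.8.1, aligned them with STAR 2.7.7a to mm10 and estimated read counts with RSEM 1.3.0 on GENCODE vM21, from strand-specific libraries, per their methods, whereas the name of the table points to another counter. Whether counting used strand is not given in the sources used here. Conditions came from the sample titles, with which the treatment field agreed in 14 of 48 libraries and the genotype field in 39. The titles' D0 was read as 6 h after treatment, and the later experiment as day 7, from the study's text.

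The 2 experiments were fitted separately with edgeR 4.0.16 quasi-likelihood tests (R 4.3.3, TMM scaling, a count minimum of 10 in the edgeR filter, 1 coefficient per condition), leaving 26848 genes in the time course and 30837 at day 7. All 9 members passed this filter in both. P-values were adjusted by Benjamini-Hochberg over all genes, with a threshold of 0.05, in 24 comparisons and 2 contrasts added later. Levels are TMM-scaled CPM, and correlations used log2(CPM + 0.5) with 100000 permutations, two-sided. The smallest p these can give is 1e-05. Alternatives were DESeq2 1.42.0, its size factors, no filter, a replicate block, other samples in the fit, sensory receptor counts as a covariate, and each library left out. The fits were tested on simulated counts.

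Replicates were separate tumors, none of which matched another of its condition within sampling noise. Libraries of different conditions were not compared in this way. A count of 0 allows up to 3 counts, and such limits cover counting error only. The members, gene lists and tests were chosen with earlier results of these data known. Named genes were all 9 members, for each of them the genes of highest correlation in the time course, and called genes of the pathway list. A gene of that list is not reported here.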

Additional observations from a re-analysis of the deposited data

Results flagged for a closer look

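The iNOS KO effect on Socs1 at day 7 differed between anti-PD-1 and untreated tumors by -3.00 ± 0.90 on the log2 scale (edgeR adjusted p = 0.0399). Socs1 averaged 1.57 CPM in iNOS KO and 3.76 CPM in WT hosts after anti-PD-1, and 3.54 CPM in iNOS KO and 1.06 CPM in WT hosts without treatment, over 3 tumors each. The contrast was chosen after these levels had been seen. The median log2 fold change of all genes in it was -1.36. The contrast was called for 22.4% of all genes. No gene was called once sensory receptor counts were a covariate, where the value for Socs1 was -3.30. Without iNOS KO untreated replicate 4, whose Socs1 level was the highest of that group, it was -2.08 (adjusted p = 0.0725). Ifng gave an adjusted p of 0.0508 in the same contrast. With 3 tumors per condition, single outlying tumors were not tested for.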

How the results depend on the processing

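Counts of members called kept within 1.5 times the reported count in 193 of 209 results under other settings and in 329 of 348 with 1 library left out, which does not say that the members were the same. Without the filter, 1 member was called for anti-PD-1 against untreated at 6 h (Socs1), IgG against untreated at day 1 (Stat2) and anti-PD-1 against IgG in WT hosts at day 7 (Ifngr1), 2 in the test of any difference in each experiment, and 3 along interferon targets at day 7. DESeq2 called 1 for IgG against untreated at 6 h, among 10 genes, and 2 for anti-PD-1 against untreated in WT hosts, among 2926. With the 3 list levels in one fit, 0 were called along leukocytes in the time course, 0 along interferon targets at day 7 and 1 along leukocytes at day 7, and along melanoma genes in the time course the count was still 4 but Ifnar2 and Stat2 replaced Ifngr1 and Jak1. Over all genes, the 0 calls in each comparison of the time course became 0 to 445 without the filter and 0 to 226 with DESeq2. At day 7 iNOS KO against WT called 181, 1349 and 936 genes untreated (edgeR, no filter, DESeq2) and 0, 2829 and 3227 after anti-PD-1, and anti-PD-1 against untreated in WT hosts called 0, 2337 and 2926. The added contrast called 6919 genes, 10720 without the filter and 24 with only the groups compared. Without the 3 libraries of high sensory receptor counts, 0 were called along interferon targets at day 7.

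Deviations of same-numbered replicates from their condition means had a median correlation of -0.0053 over 65 pairs in the time course (-0.23 to 0.3). At day 7 the median was -0.013 over 36 pairs (-0.3 to 0.52). The medians show no pairing by number, but they cannot exclude it for some tumors. With the replicate block, the anti-PD-1 effect on Stat2 at 6 h against IgG turned to -0.00519 and the added day 7 contrast called 0 members (Socs1 -2.34, adjusted p = 0.11), and the block changed no other call of a member between conditions. That contrast also called 0 with sensory receptor counts as a covariate, with only the groups compared or without the 3 libraries. The same Stat2 value ran from -0.0866 to 0.88 with 1 library left out. Stat3 in iNOS KO against WT hosts after anti-PD-1 reversed to -0.10 with the covariate and to -0.00278 without the 3 libraries.

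With 1 library left out, counts ranged from 0 to 4 for the added contrast, 0 to 3 for iNOS KO against WT after anti-PD-1, 0 to 4 for anti-PD-1 against IgG and against untreated in WT hosts, 0 to 3 for any difference at day 7, 0 to 3 along interferon targets at day 7 and 1 to 3 along leukocytes at day 7. In the comparisons between conditions the highest counts came without WT anti-PD-1 replicate 2, which left only libraries of high sensory receptor counts in that group. The share of all genes called in these fits is not given here, so the counts are not results about the members. With all libraries the added contrast called 22.4% of all genes. The causes were not tested.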
